A study of Drosophila melanogaster with 28 samples.

Results

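Whole pupae of Drosophila melanogaster at 48 hr APF (after puparium formation) were compared on spotted oligonucleotide arrays. This account is about 12 array elements with a mean sex difference in animals without a germline and a small mean difference over all wild type arrays. They were found among 15744 non-control elements, of which 3980 lay outside the lists of germline transcripts and had enough values to be judged. An element was taken when its mean log2 ratio of female over male was 0.8 or more in size in *tud* progeny (values on at least 3 arrays) and below 0.3 in size over the 8 wild type arrays (values on at least 6), and when its mean log2 ratio of CS female over XX dsxD pseudomale was below 0.7 in size (values on at least 3 arrays). An element with a *tra* ratio of 0.5 or more in size and a dsxD ratio below 0.25 in size was left out. Of the 12 members, 9 had a negative mean in *tud* progeny (higher in males) and are called M1 to M9 in the order of their means, and 3 had a positive mean (higher in females) and are called F1 to F3. The letters stand for the sign of that mean alone. In M5 and F1 it rested on 1 array, and their medians over the *tud* arrays, 0.07 and -0.07, had the opposite sign. The first limit was met by 201 elements, of which 147 had a wild type mean of 0.3 or more in size. Of the remaining 54, the dsxD limit took out 40 and the *tra* limit 2.

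The study made 7 direct comparisons of 2 genotypes with 4 arrays each, 28 arrays in all, and the dyes were swapped on 2 arrays of each comparison. The sexes were compared in *tud* progeny, in CS (Canton S) and in Berlin. XX *tra* pseudomales, XX dsxD pseudomales and XX *dsx* null intersexual pupae were each compared with CS females, and XY *dsx* null intersexual pupae with CS males. The *tud* progeny came from tud1 bw1 sp1 mothers and from y, w fathers with a UBI-GFP transgene on the X chromosome, so that female *tud* progeny carried a marked X chromosome that male *tud* progeny did not. The XX mutants carried the same marked X chromosome, and XY *dsx* nulls did not. The *tra* pseudomales were tra1/Df(3L)st-j7, the dsxD pseudomales were dsxD/dsx m+r15 with Sb1 and e1 on the dsxD chromosome, and the *dsx* nulls of both sexes were dsx d+r3/dsx m+r15. CS and Berlin are wild type strains without these alleles. Each RNA came from about 30 pooled pupae. The absence of the germline, the mother's genotype and the marked X chromosome cannot be told apart in *tud* progeny, and in whole pupae fewer cells of a type and less RNA per cell cannot be told apart.

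The *tud* gene is needed in the mother for the formation of the pole cells, from which the germline arises, and daughters and sons of homozygous mothers develop without it. The somatic sex of the fly is set by a splicing hierarchy in which TRA, present in females, directs the splicing of *dsx*. The female form of the transcription factor DSX is made where TRA is active and the male form where it is not. The dsxD allele makes the male form in XX animals, and *dsx* nulls make neither form.

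The ratio of each array was kept in the direction in which it was deposited. A negative value means higher in males in the *tud*, CS and Berlin comparisons, higher in pseudomales in the *tra* and dsxD comparisons and higher in *dsx* nulls in the null comparisons. The arrays held between 4783 and 12023 values, and the fewest were on a *tud* array. The median ratio of an array lay between -0.15 and 0.18. Transcripts listed for male germline expression had a median of -0.04 in *tud* progeny (278 elements) and of -1.55 in wild type (598 elements), and those listed for female germline expression had medians of -0.10 (292 elements) and 0.18 (301 elements). The male-specific RNA *roX1*, which takes part in dosage compensation of the X chromosome, had a median of -7.64 on the 4 *tud* arrays and of -5.14 on the 8 wild type arrays.

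Only 2 of the 12 members could be named. M3 is *Spec2* (CG14672, chromosome arm 3R), whose human relatives encode small proteins that bind the GTPase Cdc42, and F3 is *CG3939* on the X chromosome. The other 10 are unnamed here. M1 is element DAC014L08, M2 is DAC017G10, F1 is DAC019C01 and F2 is DAC012C19. Neither *Spec2* nor *CG3939* is on any of 15 gene lists for cell types and pathways, and the lists could not be applied to the 10 unnamed members.

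The values in *tud* progeny and in wild type chose the members and are given as a description, since the members were chosen by them. The mean in *tud* progeny ran from -1.36 to -0.85 in M1 to M9 and from 0.82 to 1.12 in F1 to F3. The wild type means, which joined CS and Berlin, ran from -0.17 to 0.26. In Berlin alone the means were 0.38 in M4, 0.33 in M5, 0.51 in M8, 0.63 in F1 and 0.43 in F2. Their CS means were -0.29, 0.03, 0.07, -0.19 and -0.14. The Berlin means of the other members were below 0.3 in size, and the median over all elements in Berlin was 0.17. The sign was the same on all *tud* arrays measured for 9 of the 12, and the exceptions were M5, M8 and F1. In 5 of the 12, M1, M2, M4, M6 and F3, the range of the *tud* arrays did not overlap the range of the wild type arrays, against 7.14% of the 3980 elements judged. Nothing is read from this count, since the same values chose the members.

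**Figure D1:**
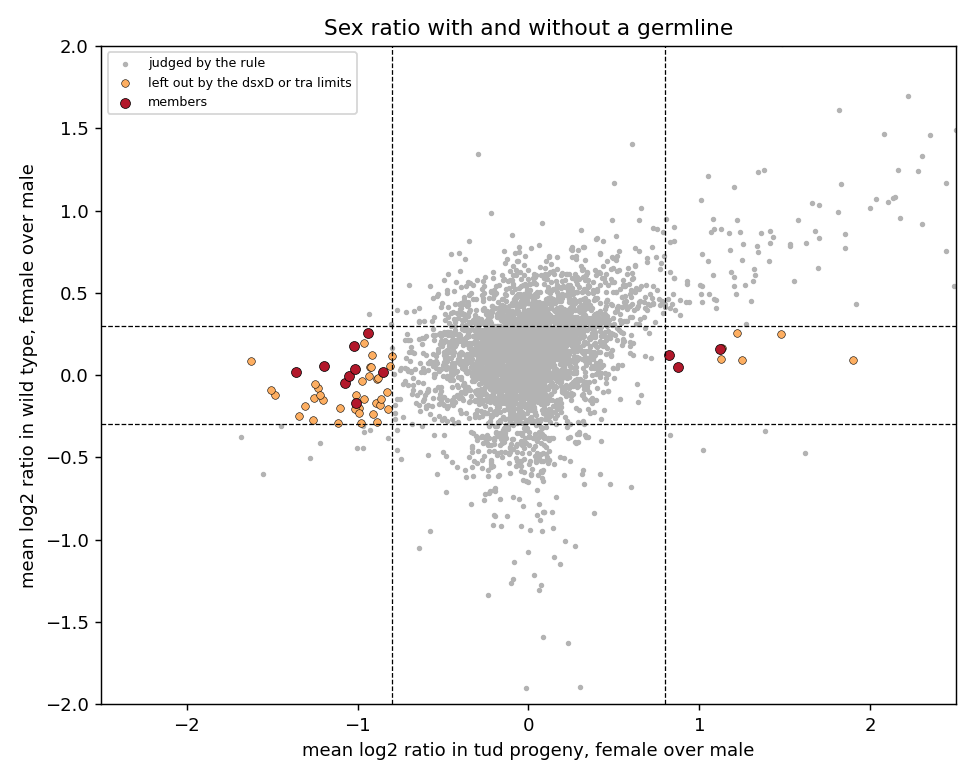
Mean log2 ratio of female over male in *tud* progeny (horizontal axis) and in wild type (vertical axis) for the 3980 elements judged, with 41 of them beyond the axes. Dashed lines mark the limits of 0.8 and 0.3, red points are the 12 members (9 on the left, 3 on the right) and orange points are the 42 elements left out by the dsxD or *tra* limits.

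M6 was the member with the most even male bias on 4 arrays. Its log2 ratios were -1.13, -1.07, -0.83 and -1.02 in *tud* progeny, against a range of -0.33 to 0.60 with a median of -0.18 on 7 wild type arrays. Each of the 4 *tud* arrays was below every wild type array. The mean was -1.01 ± 0.13 (SD, n = 4) in *tud* progeny and 0.03 ± 0.38 (SD, n = 7) in wild type. Within the wild type, M6 averaged -0.27 in CS (n = 3) and 0.26 in Berlin (n = 4).

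M1 had the largest mean difference in size, with -1.81, -1.23 and -1.04 on 3 *tud* arrays, against a range of -0.95 to 1.04 with a median of 0.02 on the 8 wild type arrays. The *tud* arrays lay below all wild type arrays. The small wild type mean of 0.02 ± 0.70 (SD, n = 8) was a balance of large values of both signs. Replicate 1 read -0.85 in CS and -0.95 in Berlin, and replicate 3 read 0.83 in CS and 1.04 in Berlin. The wild type arrays averaged -0.39 with the female RNA in Cy5 and 0.42 with the female RNA in Cy3.

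M2 read -1.90, -1.08 and -0.61 on 3 *tud* arrays, against a range of -0.30 to 0.56 with a median of 0.04 on 8 wild type arrays. All 3 *tud* values lay below the wild type range. M4 read -1.76, -1.30, -0.70 and -0.46 in *tud* progeny. In the wild type it read -0.46, -0.30, -0.10 and -0.32 in CS and 0.37, 0.28 and 0.51 in Berlin. The sex ratio of M4 thus had the same sign in *tud* progeny and CS and the opposite sign in Berlin, and its overall wild type mean of -0.003 joined 2 strains that did not overlap. The highest *tud* value and the lowest CS value of M4 were almost equal.

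*Spec2* (M3) read -1.39, -1.58 and -0.25 on 3 *tud* arrays, against a range of -0.66 to 0.33 with a median of 0.09 on 6 wild type arrays. The strong values were those with the female RNA in Cy5, and the array with the female RNA in Cy3 lay inside the wild type range. M7 read -1.23, -1.77, -0.80 and -0.25 in *tud* progeny, against -0.46 to 0.21 with a median of -0.16 on 7 wild type arrays, and only its last *tud* array was inside the wild type range. M9 read -0.83, -1.06 and -0.66 on 3 *tud* arrays, against -0.67 to 1.00 with a median of -0.11 on 8 wild type arrays. Only the smallest *tud* value of M9 touched the wild type range.

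M8 and M5 had both signs in *tud* progeny. M8 read -1.55, -2.09, -0.28 and 0.17, against -0.19 to 1.08 on 7 wild type arrays. Its 2 arrays with the female RNA in Cy5 averaged -1.82 and its 2 arrays with the female RNA in Cy3 averaged -0.05. M5 read -4.49, 0.27, 0.27 and -0.13 in *tud* progeny, so that 1 array carried its mean of -1.02. On the wild type arrays M5 ran from -1.80 to 2.34, and it averaged -0.67 with the female RNA in Cy5 and 1.03 with the female RNA in Cy3.

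Of F1 to F3, F2 was the most even. It read 0.85, 0.89 and 0.88 on 3 *tud* arrays, against -0.23 to 1.05 with a median of -0.12 on 6 wild type arrays. A single Berlin array, at 1.05, was as high as the *tud* arrays. *CG3939* (F3) read 0.80, 1.18, 0.71 and 0.58 in *tud* progeny, against -0.03 to 0.46 with a median of 0.08 on 8 wild type arrays, and each *tud* array was above every wild type array. F1 read 4.21, -0.78 and -0.07 on 3 *tud* arrays, against -0.51 to 1.17 with a median of -0.10 on 7 wild type arrays. Its mean of 1.12 in *tud* progeny rested on 1 array, and the others had the opposite sign.

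**Figure D2:**
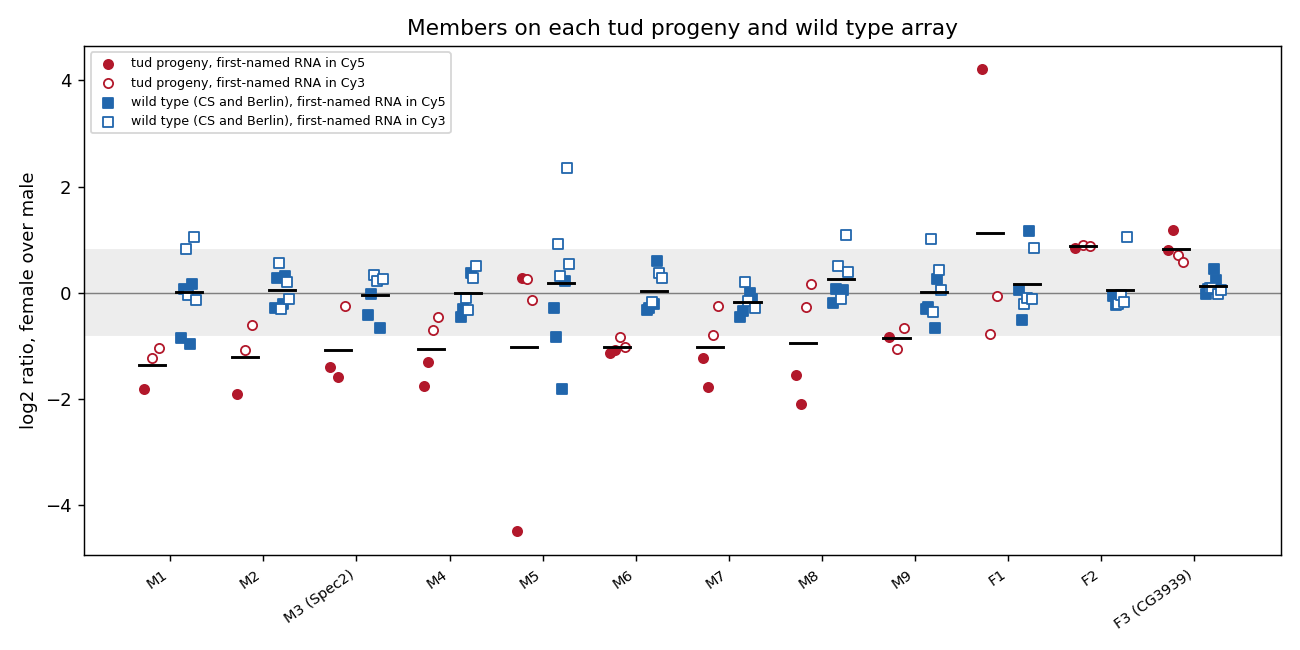
Log2 ratio of female over male for each member (horizontal axis) on each *tud* array (red circles, left) and each wild type array (blue squares, right). Filled symbols have the female RNA in Cy5, open symbols in Cy3, black bars are means, and the grey band is the zone below 0.8 in size. M5 at -4.49 and F1 at 4.21 owe their means to 1 array.

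The size of the sex difference in *tud* progeny differed with the dye orientation. Replicates 1 and 2, with the female RNA in Cy5, held 6117 and 4783 values. Replicates 3 and 4, with the female RNA in Cy3, held 7713 and 8710. Dye orientation, replicate pair and number of values thus cannot be told apart. The mean over arrays with the female RNA in Cy5 was larger in size than the mean with the female RNA in Cy3 in 10 of the 12 members. The same count was not made over the 3980 elements judged, so that the count is not read as a trait of the members. The means of both orientations had the same sign in 10 members, with M5 and F1 as the exceptions, and both were 0.8 or more in size with the same sign in 5 members (M1, M2, M6, M9 and F2). The difference between the orientation means had a median size of 0.97 among the members and of 0.31 over the 3980 elements judged. The same *tud* arrays chose the members, so that nothing is read from the larger size among them. On the wild type arrays, 13 of 87 values of the members were 0.8 or more in size, and they came from 6 members (M1, M5, M8, M9, F1 and F2). Over all elements, *tud* arrays of the same orientation correlated with r of 0.86 and 0.60, and arrays of opposite orientation with r from 0.28 to 0.56. Female RNA was in Cy5 on *tud* replicates 1 and 2 and in Cy3 on replicates 3 and 4. The sex labels of replicates 2 and 4 conflict, and their source names were used. The part of the dye orientation in the choice of the members was not tested. The members just inside the limit of 0.8 were *CG3939* at 0.82, M9 at -0.85 and F2 at 0.87. Just outside it lay *CG32447* at -0.78, *Paics* (CG3989), an enzyme of purine synthesis, at -0.75 and an unnamed element at -0.73.

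In the pseudomale comparisons, which the rule also used, most of M1 to M9 leaned towards higher levels in dsxD pseudomales. The dsxD means of M1 to M9 ran from -0.67 in M9 to 0.20 in M5, with a median of -0.50, and 8 of 9 were below 0. M9 read -0.80, -0.42, -0.77 and -0.68 and M7 read -0.75, -0.78, -0.36 and -0.77 in the dsxD comparison, close to the limit of 0.7. In the *tra* comparison the means of M1 to M9 ran from -0.32 in M7 to 0.29 in M2, with 5 above 0 and 4 below. F2 was higher in CS females than in *tra* pseudomales on all 4 arrays, with 0.36, 0.56, 0.79 and 1.46, and its dsxD values were -0.11, 0.29, 0.54 and 1.03. *CG3939* read -0.29, -0.07, -0.50 and -0.37 in the *tra* comparison, the opposite sign to its sex ratio in *tud* progeny. F1 had the largest *tra* mean in size, -1.16, from -1.10, -2.81 and 0.43 on 3 arrays, and a dsxD mean of -0.50 from -1.24, -0.35, 0.60 and -1.02. Both means of F1 had the opposite sign to its mean in *tud* progeny, and both sets of arrays held both signs. These comparisons share CS female RNA with the CS sex comparison and with the XX *dsx* null comparison.

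The *dsx* null comparisons were not used to choose the members and were tested. They are not fully apart from the choice. The XX comparison shares CS female RNA, and the XY comparison CS male RNA, with the CS sex comparison that the rule used. The tests ask whether the transcripts of the members also differ between *dsx* nulls and CS animals of the same chromosomal sex. Loss of DSX and any other difference between the *dsx* null and CS stocks cannot be told apart. The marked X chromosome is a further difference in XX nulls, and it also separates the XX from the XY comparison. A moderated test in limma against a ratio of 1, two-sided, was run over all elements with values on at least 2 of 4 arrays, and a Storey *q* value below 0.15 was called. In XX *dsx* nulls 9 of the 12 members were called higher than in CS females and 2 were called lower, where 20.2% of the 6867 elements tested were called higher and 20.2% lower. In XY *dsx* nulls 10 of the 12 were called higher than in CS males and 2 lower, where 46.7% of the 8583 elements tested were called higher and 34.2% lower. A call in either direction was thus the usual outcome in XY *dsx* nulls. With so many calls, a *q* value could lie below the p-value of the same limma test. The median log2 ratio of the members was -0.49 in the XX comparison and -0.90 in the XY comparison, against -0.01 and -0.10 over all elements tested. The elements tested, here and below, include the germline transcripts that the rule left out. The shares among the elements judged by the rule alone were not computed.

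Of M1 to M9, 7 rose in XX *dsx* nulls, M5 fell, and M6 was not called. In XY *dsx* nulls 8 of the 9 rose and M5 fell. Without M5, whose *tud* mean rested on 1 array, 7 of 8 rose in XX and 8 of 8 in XY *dsx* nulls. M8, which also had both signs in *tud* progeny, stayed in these counts. Over all elements tested, 20.2% were called higher in XX and 46.7% in XY *dsx* nulls. M9 was the most even: it read -0.54, -0.61, -0.51 and -0.64 on the XX arrays and -1.04, -0.99, -0.75 and -0.87 on the XY arrays. All 8 arrays showed higher levels in the nulls. The mean was -0.58 ± 0.10 (SE, n = 4, limma *q* = 0.00475) in the XX comparison, a 1.49-fold higher level in XX *dsx* nulls, and -0.91 ± 0.12 (SE, n = 4, *q* = 0.000359) in the XY comparison, a 1.89-fold higher level in XY *dsx* nulls.

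M1 read -1.17, -1.08 and -1.61 on 3 XX arrays and -1.50, -1.42 and -0.52 on 3 XY arrays. The level was higher in the nulls on all 6, by 2.44-fold in XX (*q* = 0.00214) and 2.22-fold in XY (*q* = 0.00231) by limma. M4 read -0.79 and -2.14 on 2 XX arrays and -2.52 and -1.60 on 2 XY arrays, and it had the largest mean change of M1 to M9, 2.76-fold (*q* = 0.0283) and 4.17-fold (*q* = 0.000907), each from 2 arrays only. Both XX arrays of M4 had the CS female RNA in Cy5, so that its XX change and a dye effect cannot be told apart. The call of M4 in XX nulls was lost with an unmoderated two-sided *t*-test (*q* = 0.258).

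M8 was measured on 2 XX arrays, at -0.77 and -1.02, and on 3 XY arrays, at -1.38, -0.62 and -1.99. It was higher in the nulls on all 5, with means of -0.89 ± 0.17 (SE, n = 2, limma *q* = 0.0152) and -1.33 ± 0.26 (SE, n = 3, *q* = 0.00238). Both XX arrays of M8 also had the CS female RNA in Cy5, and its XX change and a dye effect cannot be told apart either. M7 read -0.08, -0.84, -0.76 and -0.86 on the XX arrays and -1.25, -0.50 and -1.85 on 3 XY arrays. It too was higher in the nulls on every array, by 1.55-fold in XX (*q* = 0.0188) and 2.30-fold in XY (*q* = 0.00331), and its first XX array stood apart from the other three.

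*Spec2* changed less. It read -0.26, -0.68, -0.03 and -0.63 on the XX arrays, a mean of -0.40 ± 0.14 (SE, n = 4, limma *q* = 0.0553), and -0.80, 0.22, -0.70 and -0.32 on the XY arrays, a mean of -0.40 ± 0.18 (SE, n = 4, *q* = 0.0346). Both means correspond to a 1.32-fold higher level in the nulls, and 7 of the 8 arrays had that direction. Without replicate 4 of the XX arrays the call of *Spec2* in XX nulls was lost (*q* = 0.162).

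M2 and M6 changed more clearly in XY than in XX animals. M2 read -0.63, -0.82, -0.91 and -1.20 on the XY arrays, a mean of -0.89 ± 0.13 (SE, n = 4, limma *q* = 0.000652), and -0.27 ± 0.13 (SE, n = 4, *q* = 0.109) over the XX arrays, of which the lowest was -0.55. The XX call of M2 was lost with a Benjamini-Hochberg adjustment (adjusted p = 0.209), with an unmoderated *t*-test (*q* = 0.167) and in 1 fit over all 28 arrays (*q* = 0.212). It was also lost without XX replicate 3 (*q* = 0.176) or 4 (*q* = 0.274). M6 read -0.21, 0.13, 0.00 and -0.41 on the XX arrays, a mean of -0.12 ± 0.12 that was not called (*q* = 0.295), and -0.83, -0.09 and -0.74 on 3 XY arrays, a mean of -0.55 ± 0.19 (SE, n = 3, *q* = 0.0163).

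M5, whose *tud* arrays did not share a sign, was lower in both nulls. It read 0.78, -0.07, 1.03 and 0.70 on the XX arrays and 0.26, 1.63, 0.72 and 1.53 on the XY arrays, so that its level was lower in the nulls on 7 of 8 arrays. The means were 0.61 ± 0.18 (SE, n = 4, limma *q* = 0.0356) and 1.03 ± 0.24 (SE, n = 4, *q* = 0.00324). In 1 fit over all 28 arrays the XX call of M5 was lost (*q* = 0.376).

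F2 and *CG3939*, which were higher in females on all *tud* arrays measured, had opposite signs in the nulls. F2 was lower in the nulls on all arrays measured, with 1.15 and 1.07 on 2 XX arrays and 1.01, 1.73 and 1.28 on 3 XY arrays. Its means were 1.11 ± 0.16 (SE, n = 2, limma *q* = 0.00721), a 2.16-fold lower level in XX *dsx* nulls, and 1.34 ± 0.18 (SE, n = 3, *q* = 0.000632), a 2.54-fold lower level in XY *dsx* nulls. F1, whose *tud* arrays did not share a sign, was higher in the nulls. It read -1.74, -2.58, -1.44 and -0.58 on the XX arrays and -4.73, -3.40 and -0.02 on 3 XY arrays. It was called in both comparisons (limma *q* = 0.00684 in XX and 0.00934 in XY). The XY array at -0.02 was its only one with the CS male RNA in Cy3. The XX means of F1 were -2.16 with the CS female RNA in Cy5 and -1.01 in Cy3. *CG3939* was slightly higher in the nulls, with -0.15, -0.40, -0.16 and -0.21 on the XX arrays and -0.05, -0.41, -0.32 and -0.31 on the XY arrays. All 8 values of *CG3939* were below 0, and the means of -0.23 ± 0.10 (SE, n = 4, limma *q* = 0.0976) and -0.27 ± 0.12 (SE, n = 4, *q* = 0.0320) were the smallest called changes in size of the 12 members. The XX call of *CG3939* was lost with a Benjamini-Hochberg adjustment (adjusted p = 0.188) and without XX replicate 1 (*q* = 0.160), 2 (*q* = 0.219) or 4 (*q* = 0.184).

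**Figure D3:**
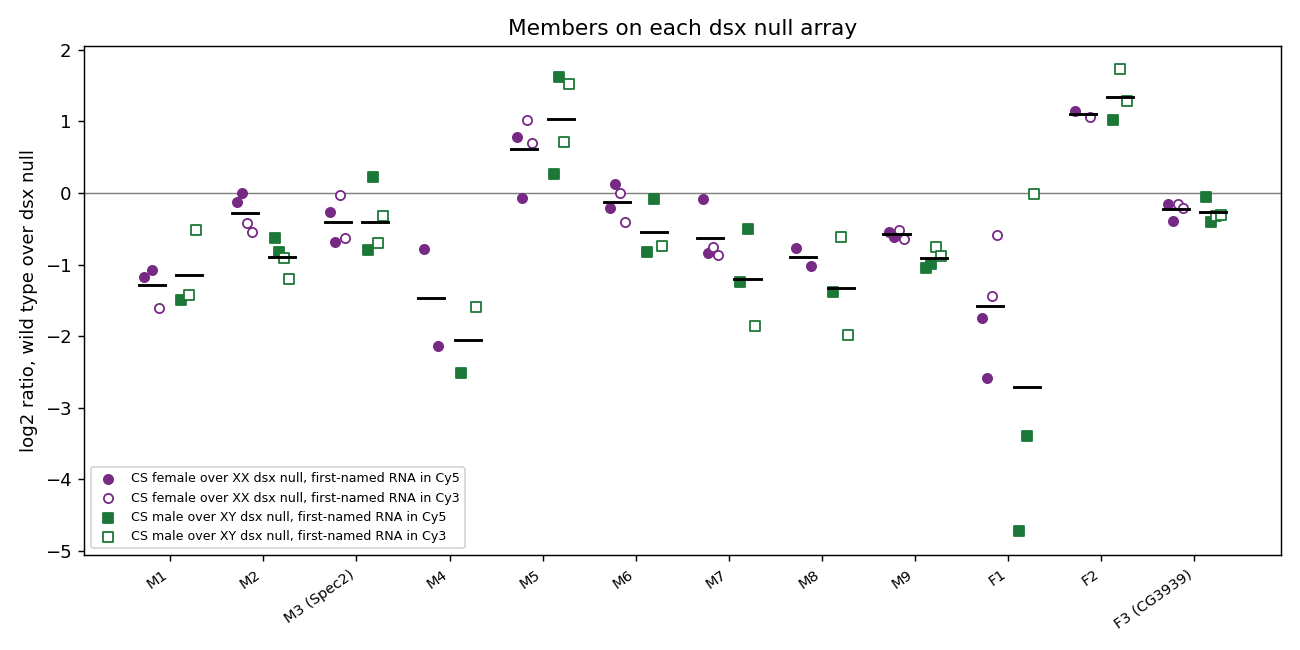
Log2 ratio of wild type over *dsx* null for each member (horizontal axis) on each XX array (purple circles, left) and each XY array (green squares, right). Filled symbols have the wild type RNA in Cy5, open symbols in Cy3, and black bars are means. Of the 12 members, 10 have a mean below 0 in both comparisons, and M5 and F2 lie above 0.

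The difference between the XX and the XY effect was tested in 1 limma fit of both comparisons. The XX minus XY difference was called for 4 of the 12 members, M2, M6, M7 and M9, where 48.2% of the 6419 elements tested were called, so that the share among the members was not above that of all elements. In all 4 the nulls differed more from the wild type in XY than in XX animals. The difference was 0.62 ± 0.18 (SE, n = 8, limma *q* = 0.0287) for M2, 0.43 ± 0.22 (SE, n = 7, *q* = 0.102) for M6, 0.56 ± 0.32 (SE, n = 7, *q* = 0.116) for M7 and 0.34 ± 0.13 (SE, n = 8, *q* = 0.0546) for M9. The median difference over all elements was 0.19, and with each array centred on its median M6 (*q* = 0.171) and M7 (*q* = 0.188) were no longer called. Both calls were also lost with a Benjamini-Hochberg adjustment (adjusted p = 0.230 for M6 and 0.263 for M7). An unmoderated *t*-test lost both too (*q* = 0.152 and 0.192), and 1 fit over all 28 arrays lost M7 (*q* = 0.165). The call of M6 was also lost without XX replicate 2 (*q* = 0.163) or 3 (*q* = 0.171) and without XY replicate 1 (*q* = 0.201) or 3 (*q* = 0.208), and that of M7 without XX replicate 1 (*q* = 0.238) or 3 (*q* = 0.155) and without XY replicate 1 (*q* = 0.165) or 4 (*q* = 0.293). M2 was called under all alternatives run, and M9 under all but 1 fit over all 28 arrays (*q* = 0.251).

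For the other 8 members the difference was not called. *CG3939* and *Spec2* had the smallest differences, at 0.04 ± 0.14 (SE, n = 8) and -0.003 ± 0.24 (SE, n = 8). The difference was -0.14 ± 0.29 (SE, n = 6) for M1, 0.60 ± 0.50 (SE, n = 4) for M4, -0.42 ± 0.33 (SE, n = 8) for M5, 0.43 ± 0.38 (SE, n = 5) for M8 and -0.23 ± 0.25 (SE, n = 5) for F2. F1 had the least precise one, 1.13 ± 0.93 (SE, n = 7). XY replicate 4 was its only XY array near 0 and its only one with the CS male RNA in Cy3. Without that array the difference of F1 was 2.48 and called (limma *q* = 0.0266). Without XY replicate 1 the differences of M5 (*q* = 0.0763) and F2 (*q* = 0.144) were called, and without XY replicate 3 that of M8 (*q* = 0.0769). With a term for the dye orientation the difference of M4 was 1.06 and called (*q* = 0.114), and with array weights that of M5 was -0.47 and called (*q* = 0.137).

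The 40 elements taken out by the dsxD limit met the same limits in *tud* progeny and wild type as the members. Of them, 35 had a mean higher in males without a germline and 5 a mean higher in females. In XX *dsx* nulls 33 of the 34 tested in the first set were called higher than in CS females, with a median of -1.15. All 5 of the second set were called lower, with a median of 1.13, where 20.2% of all elements tested were called in each direction. In XY *dsx* nulls 32 of the 33 tested in the first set were called higher than in CS males, with a median of -1.63. All 5 of the second set were called lower, with a median of 1.10, where 46.7% of all elements tested were called higher and 34.2% lower. The medians of M1 to M9 were -0.58 in the XX and -0.91 in the XY comparison, and -0.61 and -1.03 without M5. The rule limited the dsxD ratio of the members, and these elements were taken for a large one. That ratio shares CS female RNA with the XX null ratio. Nothing is read from the calls of these elements, and the difference between them and the members was not tested.

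**Figure D4:**
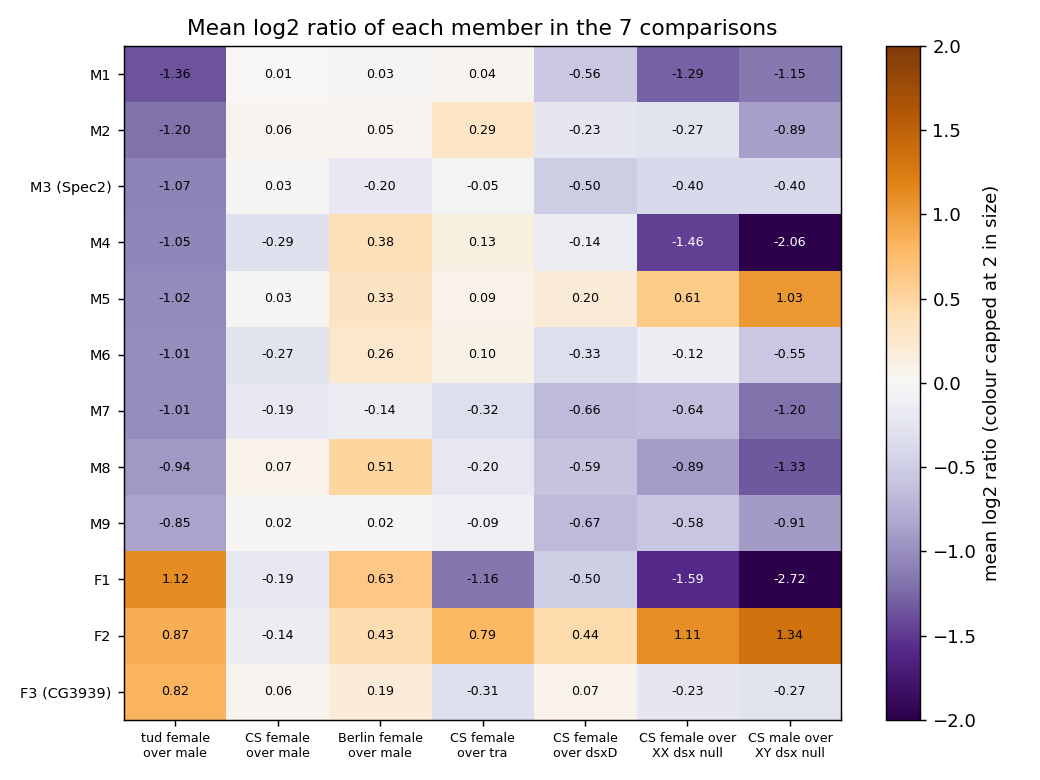
Mean log2 ratio of each member (rows) in the 7 comparisons (columns), with the direction of each ratio under its column and the value in each cell. The colour is capped at 2 in size. M1 runs from -1.36 in *tud* progeny over 0.01 in CS and 0.03 in Berlin to -1.29 and -1.15 in the XX and XY *dsx* null comparisons.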

How the data were processed

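RNA of whole pupae at 48 hr APF was hybridised to 2-colour oligonucleotide arrays. The authors kept elements with signal above background in at least 1 channel and applied LIMMA's global loess within each array. The deposited values are log2 ratios of both channels, with 1 value per element and array, and swapped dyes are already turned. Whether background was corrected or arrays were scaled to each other is not given in the sources used here. Direction and scale were settled by setting the columns beside the fold changes listed for the DSX-dependent genes: between 162 and 176 elements per mutant or *tud* comparison were set beside them, and each lay within 0.1. The sex of the second channel is labelled in conflicting ways for 2 *tud* arrays, and the source name was used. Of 15776 elements, 32 controls were left out. The arrays give no counts, and the number of arrays limits the precision. Nothing says that the 4 arrays of a comparison used separate RNA, so that p-values measure the spread between arrays, which may be technical.

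Means, SDs and the rule were computed in Python 3.11.15. limma 3.58.1 in R 4.3.3 gave moderated tests for the *dsx* null comparisons, with *q* values by Storey's smoother (lambda 0.05 to 0.95 in steps of 0.05), tested on simulated data. The XX and XY effects were contrasted in 1 fit without a replicate block. Members and lists were chosen with earlier results of these data known. Named in the text are members that could be named, elements next to the limit of 0.8 and at most 2 identifiers per direction. The lists name 2357 elements, 890 of them among the 3980 judged, and genes were placed on chromosome arms with the RefSeq table of Release 6 plus ISO1 MT. No sequence was used here. Alternatives covered the adjustment, a dye term, missing values, centring, scaling, an unmoderated *t*-test, array weights, 1 fit over all arrays, a replicate block and leaving out single arrays.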

Additional observations from a re-analysis of the deposited data

Results flagged for a closer look

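Among 53 sets of 4 arrays of a member, 6 had 1 array far from the other three, and chance gives about 1 in 20. M5 had -4.49 on *tud* replicate 1, where the others lay between -0.13 and 0.27. M7 had -0.36 on dsxD replicate 3 (others -0.78 to -0.75) and -0.085 on XX *dsx* null replicate 1 (others -0.86 to -0.76). M9 had 1.00 on CS replicate 3 (others -0.35 to -0.27) and 0.65 on *tra* replicate 2 (others -0.39 to -0.28). *CG3939* had -0.028 on CS replicate 1 (others 0.08 to 0.10).

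The *dsx* null effect differed between XX and XY animals by the contrast in limma for M2 (0.62), M6 (0.43), M7 (0.56) and M9 (0.34). M4 had opposite signs in CS and Berlin on every array, a difference of the means of -0.67 that was not tested.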

How the results depend on the processing

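The number of members was 12. It was 19 with the median over arrays in place of the mean (6 of the 12 among them), 6 with values required on all 4 *tud* arrays, 14 with the mean of both dye orientation means in *tud* progeny, which equals the mean over arrays for the 6 members with values on all 4, and 12 with centred and 11 with scaled arrays. Leaving out single *tud* arrays gave 7 to 19 (7 without replicate 2, 19 without replicate 4), with 6 of the 12 kept without replicate 1, 2 or 3 and 7 without replicate 4, single wild type arrays 10 to 14, and, chosen after seeing the data, single dsxD arrays 8 to 11 and single *tra* arrays 11 to 12. M6 stayed a member under all 25 alternatives, *CG3939* under 22 and *Spec2* under 12. In XX nulls 11 members were called, 7 with values on all 4 arrays and 7 to 9 without single arrays (7 without replicate 2), where some members had too few values left. In XY nulls 12 were called and 5 with values on all 4 arrays, and calls over all elements then changed to 4122, against 6943. For the XX minus XY difference, calls among members changed to 2, against 4, with a Benjamini-Hochberg adjustment, with values on all 4 arrays, with centred arrays, with an unmoderated *t*-test and with 1 fit over all 28 arrays. Calls over all elements changed to 1597, 1845 and 1731 with the adjustment, with all 4 arrays and with 1 fit, against 3096. Leaving out single arrays gave 2 to 4 members (2 without XX replicate 3) and 2057 to 2914 elements (2057 without XX replicate 1). Calls over all elements with the adjustment were 4456 in the wild type (main 7237), 643 in *tud* progeny (main 1192) and 1080 for *tra* (main 1876).

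With the replicate number as a block, 3006 elements and 5 members were called for the difference, F1 (1.08, *q* = 0.117) among them, and M1 changed sign (0.073). Same-numbered XX and XY arrays deviated together with r from 0.09 to 0.42, over 0.1 for 3 of 4 numbers, and 2 of 4 correlated best with their own. Neither the labels nor these values settle whether the numbers pair the arrays.

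No member changed sign in the XX or XY comparison under any alternative run, and no XY call was lost where the member was still tested. In the difference, uncalled values close to 0 changed sign: *CG3939* with centred arrays (-0.035) and without XY replicate 2 (-0.0034, without others up to 0.12), *Spec2* with scaled arrays (0.012), with array weights (0.0091) and without single arrays (-0.14 to 0.20), and M1 without XX replicate 3 (0.02) or XY replicate 4 (0.18, without others down to -0.31). Members with values on 2 or 3 arrays of a comparison limit what can be called.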
